A study of Gallus gallus with 25 samples.

Results

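The hairpin tiling probes are 74 DNA probes of 1412 on a one-colour microRNA array. They were chosen by the array's own annotation, which marks them as hairpin tiling, and each is a reverse complement of a stretch of a microRNA precursor. The tiles cover 6 hairpins in steps of 5 bases. Chicken let-7a-3 and mir-122a-1 have 10 tiles each, chicken mir-17 has 12, mir-16-1 has 13 and mir-20a has 14, and the human hairpin mir-423 has 15. The remaining probes used here are 657 perfect-match probes to mature microRNAs and 657 partners with 2 mismatched bases.

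Small RNA below 200 nucleotides was taken from gonads of chicken embryos, pooled by sex, and 500 ng went onto each array. The arrays described carry chip number 4011845 and number 18 of the 25 in the series. They hold male gonads of embryonic day (E) 5.5 (3 arrays), E6.5 (3) and E9.5 (4), and female gonads of E5.5 (3), E6.5 (1) and E9.5 (4). No transgene or treatment was involved. E5.5 and E6.5 embryos were sexed by PCR, and E9.5 embryos by eye from the asymmetry of the female gonads, so stage and sexing method cannot be told apart. The dye binds guanine, which per the labels' protocols biases the signal towards G-rich targets. The labels do not say whether arrays numbered 1-1 and 1-2 come from separate pools. The p-values therefore reflect array-to-array spread, some of it possibly technical. The number of arrays limits the precision, and the single female E6.5 array was assumed to vary like the other groups. In pooled gonads, a lower signal from fewer cells of a type and from less RNA per cell cannot be told apart.

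A microRNA is cut out of a longer transcript in steps. The nuclear enzyme Drosha frees a hairpin, the cytoplasmic enzyme Dicer removes its loop, and usually one strand of the remaining duplex is kept in an Argonaute protein as the mature microRNA. A probe that tiles the hairpin can bind the mature strand, the partner strand, the loop or the uncut precursor, depending on which part it covers.

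The sequences below are the 6 hairpins as rebuilt from the overlapping tile probes, written as DNA from 5′ to 3′, and are shown because every result is given by position in them. Capitals mark the target of the mature probe on the same array.
gga-let-7a-3: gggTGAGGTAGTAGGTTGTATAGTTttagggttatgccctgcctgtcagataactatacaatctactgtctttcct
gga-mir-16-1: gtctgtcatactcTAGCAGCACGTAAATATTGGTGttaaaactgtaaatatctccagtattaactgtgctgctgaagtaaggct
gga-mir-17: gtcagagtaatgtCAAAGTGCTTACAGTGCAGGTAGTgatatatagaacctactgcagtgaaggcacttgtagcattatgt
gga-mir-20a: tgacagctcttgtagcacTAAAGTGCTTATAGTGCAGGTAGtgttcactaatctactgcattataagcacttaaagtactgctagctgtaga
gga-mir-122a-1: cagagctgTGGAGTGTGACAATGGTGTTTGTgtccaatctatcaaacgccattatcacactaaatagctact
hsa-mir-423: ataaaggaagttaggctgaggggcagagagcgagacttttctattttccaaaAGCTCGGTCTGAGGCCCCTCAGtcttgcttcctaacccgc

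In the chicken hairpins the capitals lie on the 5′ arm, at bases 4 to 25 of let-7a-3, 14 to 35 of mir-16-1, 14 to 37 of mir-17, 19 to 41 of mir-20a and 9 to 31 of mir-122a-1. In the human mir-423 hairpin they lie on the 3′ arm, at bases 53 to 74. A tile is named below by its hairpin and the first and last base it covers, counted from 1 at the 5′ end. The 5 chicken hairpins correspond to the RefSeq genes MIRLET7A3, MIR16-1, MIR17, MIR20A and MIR122-1 of assembly GRCg7b. The first 4 have other microRNA genes within 1000 bases, which are MIRLET7B for let-7a-3, MIR15A for mir-16-1, MIR18A for mir-17, and MIR19B1 and MIR19A for mir-20a. The human hairpin was not matched to a gene of that table.

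A probe was counted as above background on an array when its foreground median exceeded the 95th percentile of the 7 negative control probes of that array. By this threshold, 18 of 74 tiles (24.3%) were above background on at least 9 of the 18 arrays, against 117 of 657 mature probes (17.8%) and 7 of 657 mismatch probes (1.07%). Of the tiles, 12 were above on every array with a value, 24 on at least 3 arrays and 27 on at least 1, and 47 were never above. Single arrays had 12 to 25 tiles above background (median 18) and 51 to 177 mature probes. The array's median foreground ran from 74.5 to 207 intensity units and its threshold from 103 to 383. One negative control, Lambda Spike 8, was the highest of the 7 on all 18 arrays and set the threshold. Without it, 34 tiles were above on at least 9 arrays.

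By this threshold, most chicken tiles above background on at least 9 arrays covered the mature 5′ strand. Of the 13 chicken tiles that cover at least 18 bases of the mature target, 11 were above on at least 9 arrays and all 13 on at least 3. Of the 14 tiles covering 10 to 17 of those bases, 1 was above on at least 9 arrays, as was 1 of the 9 covering 1 to 9 bases and 1 of the 23 covering none. The 3 tiles in these last classes all belong to let-7a-3. In the other 4 chicken hairpins, 9 of 11 tiles with at least 18 mature bases and 0 of 38 others reached 9 arrays. This pattern depended on the threshold. Without Lambda Spike 8, some tiles of these chicken hairpins covering no mature bases reached 9 arrays. They were mir-17 tiles 41-66, 46-68 and 51-74 (12, 18 and 17 arrays) and mir-16-1 tiles 46-73, 51-75 and 56-82 (14, 12 and 15). By the mismatch probes' 95th percentile, mir-17 tiles 46-68 and 51-74 and mir-16-1 tile 56-82 did (12, 10 and 12). In mir-20a, only 3 tiles reached 9 arrays by either. Overlapping tiles share sequence and are not independent measurements, so these counts carry no test. Tiles above on at least 9 arrays pair with a median of 7.5 G residues in their target (range 5 to 12), against 5 (range 1 to 9) for tiles never above. The part of this difference in the detection pattern was not tested. Median probe length was 26 bases in tiles above on at least 9 arrays and 27 in tiles never above, and melting temperatures given in the files ranged from 60.0 to 62.3 degrees over all tiles.

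let-7 is a conserved microRNA family known for restraining proliferation and pluripotency genes as cells differentiate. Tile 1-29 of let-7a-3, which covers all 22 mature bases, was above background on all 18 arrays, at 2.19 to 33.1 times the threshold (median 11.5). Tile 6-36, with 20 mature bases, was also above on all 18 arrays, at 1.04 to 7.33 times the threshold (median 3.51). Signal did not stop at the mature strand in this hairpin. Tile 21-44, with 5 mature bases, and tile 26-47, with none, were each above on 17 arrays, reaching 5.72 and 8.20 times the threshold. Tile 11-39 was above on 10 arrays, tile 16-42 on 6, tile 31-54 on 5 and tile 46-76 on 3. Tiles 36-60 and 41-69, on the 3′ side, were above on none. The targets of the brightest tile and of the tile past the mature strand show how they differ.
gga-let-7a-3 tile 1-29 target: gggTGAGGTAGTAGGTTGTATAGTTttag
gga-let-7a-3 tile 26-47 target: ttagggttatgccctgcctgtc
The mature probe gga-let-7a was above background on 13 arrays and mmu-let-7a, the mouse name for a probe 1 base shorter, on 10. Other let-7 family members differ from let-7a by few bases and could bind the same tiles.

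miR-16 is known in mammals for limiting the cell cycle and lowering the survival protein BCL2. In mir-16-1, the tiles above on at least 9 arrays were 6-33 (18 arrays, 1.28 to 7.18 times the threshold), 11-36 (17 arrays, 0.893 to 10.4) and 16-43 (11 arrays, 0.515 to 2.06). All other 10 tiles reached the threshold on at most 1 array, including tile 21-54, which still covers 15 mature bases but lacks the first 7. Tile 1-24, which holds the first 11 mature bases, was above on none. The mature probes gga-miR-16 and hsa-miR-16 were above on 13 and 11 arrays.

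miR-17 and miR-20a come from one polycistronic cluster known for promoting proliferation, and their mature targets on this array differ at 2 of 23 bases. In mir-17, tiles 11-33 and 16-39 were above on all 18 arrays and tile 6-31 on all 17 with a value, at medians of 3.96, 4.45 and 6.03 times the threshold. Tile 21-50 was above on 4 arrays, and tiles 46-68 and 51-74, on the 3′ arm, on 1 array each. In mir-20a, tiles 16-42 and 21-46 were above on all 18 arrays, with medians of 5.35 and 2.16 times the threshold, and tile 11-37 on 16 (median 2.15). The other 11 tiles of mir-20a were above on none. The mature 5′ probes gga-miR-17-5p and dre-miR-17a were above on 18 arrays and gga-miR-20a on 17. The 3′ strand probes gga-miR-17-3p, mmu-miR-17-3p and rno-miR-20a* were above on 0 arrays.

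miR-122 is the abundant microRNA of liver. Of its 10 tiles, 2 were above background on at least 1 array, and none reached 9 arrays. Tile 6-29 was above on 3 of 4 male and 3 of 4 female arrays of E9.5 and on none of the 10 earlier arrays. Its signal at E9.5 was 1.31, 1.10, 0.836 and 1.38 times the threshold in males and 1.22, 1.19, 0.719 and 1.35 times in females, and the earlier arrays lay between 0.584 and 0.967, so the stages overlapped. Its foreground in males was 192 to 262.5 units at E5.5 and 162.5 to 262 at E9.5. In females it was 127 to 213 and 125 to 216. These arrays were scanned at different exposures, so foreground units are not directly comparable between them. Whether the count by stage reflects the signal or the threshold was not tested. Without Lambda Spike 8 the tile was above on 18 arrays, and by the mismatch probes' 95th percentile on 17. Tile 11-35 was above on 7 arrays, 3 of them at E9.5. The mature probes gga-miR-122a and dre-miR-122 were above on 0 arrays.

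By the negative control threshold, the human mir-423 hairpin had signal at one end. Tiles 1-24, 6-26, 11-31 and 16-35 were above background on all 18 arrays, at medians of 11.9, 4.16, 3.52 and 1.77 times the threshold. The other 11 tiles, from 21-42 onward, were above on none, including both tiles with at least 18 bases of the capitalised 3′ strand. This edge depended on the threshold. Without Lambda Spike 8, tiles 21-42, 41-66 and 46-67 were above on 13, 13 and 10 arrays. By the mismatch probes' 95th percentile they were above on 1, 4 and 3. The mature probe hsa-miR-423, which targets that strand, was above on 0 arrays. The array has no mature probe to the 5′ arm, so whether tiles 1-24 to 16-35 bound a mature strand was not tested. The targets of the last tile above the negative control threshold and the first tile below it are shown next.
hsa-mir-423 tile 16-35 target: ctgaggggcagagagcgaga
hsa-mir-423 tile 21-42 target: gggcagagagcgagacttttct
These are probes to a human sequence, and the chicken RNA that bound them was not identified from the files.

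For comparisons between groups, foreground medians were background-corrected, put on a log2 scale and quantile-normalised, and 187 probes above background on at least 3 arrays were fitted together with limma, among them 24 of the 74 tiles. The other 50 tiles were not tested. Differences are on the normalised log2 scale, and adjusted p-values are Benjamini-Hochberg over the 187 probes with a threshold of 0.05. The sexes were compared within each stage, and stages within each sex.

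No tile passed between the sexes. At E5.5, 0 of 24 tiles and 0 of 187 probes (0%) passed in limma, and 2 probes (1.07%), none of them a tile, stood below 0.05 before adjustment. let-7a-3 tile 11-39 came lowest in p among the tiles, with a male minus female difference of -1.001 ± 0.50 (SE, limma adjusted p = 0.948). Its normalised log2 values were 6.98, 5.92 and 7.97 in male arrays and 7.81, 8.17 and 7.89 in female arrays, so the sexes overlapped. With slide position as a block this difference was 0.02, and no position held E5.5 arrays of both sexes.

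At E6.5, 0 of 24 tiles and 0 of 187 probes (0%) passed, with 10 probes (5.35%) and no tile at an unadjusted p under 0.05. hsa-mir-423 tile 11-31 had the lowest p among the tiles, at 10.3, 8.68 and 8.86 in male arrays and 10.7 in the female array (difference -1.44 ± 0.73, SE, limma adjusted p = 0.672). Without the filter on dim probes, 15 probes passed, 3 of them tiles. At E9.5, 0 of 24 tiles and 0 of 187 probes (0%) passed, with 9 probes (4.81%) and no tile at an unadjusted p under 0.05. The median male minus female difference was 0.06 over the 24 tiles and 0.02 over all 187 probes. mir-17 tile 11-33 had the lowest p, at 9.81, 7.59, 9.60 and 10.3 in males and 10.3, 9.13, 10.1 and 10.2 in females (difference -0.62 ± 0.48, SE, limma adjusted p = 0.970). With single arrays left out this difference ran from -0.93 to -0.0556, the last without Male E9.5 replicate 1-2. Deviations from group means correlated positively between same-numbered arrays at E9.5. No correlation was computed between differently numbered arrays. With the replicate number as a block 1 probe and 0 tiles passed.

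let-7a-3 tile 1-29 had the lowest adjusted p of the tiles in any comparison. It rose in E9.5 gonads, against E5.5 gonads, in both sexes. In males it stood at 33.1, 25.5, 21.6 and 20.6 times the threshold at E9.5, against 2.19, 4.99 and 4.71 times at E5.5. In females it stood at 22.1, 14.6, 15.4 and 24.6 times at E9.5, against 2.23, 6.85 and 8.52 times at E5.5. Neither sex had any overlap between these stages, and the 3 male E6.5 arrays lay between them, at 10.0, 7.86 and 13.0 times. The female E6.5 array stood at 3.65 times the threshold. The threshold itself ran from 216 to 297 units at E5.5 and from 118 to 242 at E9.5 in males. In females it ran from 217 to 258 and from 103 to 182. Foreground of the tile ran from 651 to 1364 and from 2432 to 6072.5 in males. In females it ran from 485 to 2200 and from 2273 to 3421. Exposures differed, and the part of the threshold in these ratios was not tested.

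On the normalised log2 scale, tile 1-29 rose by 1.90 ± 0.32 in males (SE, limma adjusted p = 0.00088) and by 1.51 ± 0.32 in females (limma adjusted p = 0.00733). On all 8 E9.5 arrays it was the brightest of the probes normalised, so quantile normalisation gave it one value, 11.7, with no spread. Scaling each array on its 75th percentile, which sets no such ceiling, gave a rise of 2.40 in males (limma adjusted p = 0.00136) and 1.39 in females (limma adjusted p = 0.0323). Over all 27 alternatives the adjusted p ran from 0.00012 to 0.0159 in males and from 0.000459 to 0.0595 in females, where the call was lost with the series values. All of them except the 75th percentile scaling kept the quantile normalisation, so this range does not bear on the ceiling. Within a slide position the difference was 1.68 at the position with male arrays of both stages, and 0.57 and 1.98 at the 2 positions with female arrays of both. The E9.5 value was the ceiling, 11.7, at each position, so these differences reflect the E5.5 arrays alone. Those of 1.68 and 0.57 rest on 1 array per stage, and that of 1.98 on 2.

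Tile 6-36 rose as well. In males its normalised log2 values were 9.52, 10.3, 9.25 and 9.97 at E9.5, against 8.38, 8.34 and 9.37 at E5.5. In females they were 9.75, 9.90, 9.75 and 9.85 at E9.5, against 8.79, 8.79 and 8.79 at E5.5. The stages overlapped in males by 1 array of each, and not in females. The rise was 1.07 ± 0.28 in males (SE, limma adjusted p = 0.0253) and 1.02 ± 0.28 in females (limma adjusted p = 0.0276). It lost its call in males when Male E5.5 replicate 2 or 3, or Male E9.5 replicate 1-2 or 3, was left out, and in females when any E5.5 female array or E9.5 replicate 1-1, 1-2 or 3 of the females was left out (adjusted p from 0.0543 to 0.132 in these 10 fits). It also lost the call in males with the authors' series values (0.0698) and with only the groups compared (0.166). In females it lost it with 75th percentile scaling (0.0731), the series values (0.0836), the replicate block (0.143) and arrays 1-1 and 1-2 merged (0.0512). It passed in 21 of 27 alternatives in males and 17 of 27 in females, and the adjusted p ran from 0.00501 to 0.166 in males and from 0.00441 to 0.143 in females. Within a slide position the difference was 0.96 in males and 1.06 and 0.96 in females. The male difference and the first female one rest on 1 array per stage.

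Of the tested probes as a whole, 14 of 187 (7.49%) passed in E9.5 males against E5.5 males, 13 higher (6.95%) and 1 lower (0.535%). Among tiles these were 2 of 24, tiles 1-29 and 6-36. The 24 include let-7a-3 tiles 31-54 and 46-76, mir-17 tile 21-50 and mir-122a-1 tile 6-29. These met the filter of 3 arrays only through E9.5, so nothing is read from their stage comparisons. In females 21 of 187 (11.2%) passed, 15 higher (8.02%) and 6 lower (3.21%), and 4 of 24 tiles, of which 2 were higher and 2 lower. The median change was 0.22 over tiles and 0.05 over all probes in males, and -0.07 and -0.03 in females.

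The mature probe gga-let-7a rose with them. It was above background on every E9.5 array, but on only 1 of 3 E5.5 arrays in each sex. Its E5.5 level thus lay mostly below the threshold, and the size of the rise is uncertain. The probe averaged 8.37 ± 0.41 at E9.5 and 7.16 ± 0.11 at E5.5 in males (SD, n = 4 and 3), a difference of 1.21 ± 0.28 (SE, limma adjusted p = 0.0121). In females it averaged 8.67 ± 0.27 at E9.5 and 7.25 ± 0.14 at E5.5 (SD, n = 4 and 3), a difference of 1.43 ± 0.28 (SE, limma adjusted p = 0.00531). mmu-let-7a was above background on all 8 E9.5 arrays, on 2 of 3 male E6.5 arrays and on no E5.5 array. It met the filter of 3 arrays only through E9.5, so its change is given no test. Tiles of the same hairpin past the mature strand did not pass. Tile 26-47 stood at 8.85, 8.87, 8.21 and 8.92 in E9.5 males, against 8.16, 10.9 and 9.04 in E5.5 males, with overlap (difference -0.66 ± 0.58, SE, limma adjusted p = 0.529). In females it stood at 8.30, 8.77, 7.45 and 8.91 at E9.5, against 8.97, 9.12 and 9.07 at E5.5, without overlap (difference -0.70 ± 0.58, SE, limma adjusted p = 0.423).

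Some probes for other cell types also passed between E9.5 and E5.5. Both probes to miR-451, a red blood cell microRNA, passed as higher at E9.5 in both sexes. Their summed foreground ran from 508 to 1393 units at E9.5 and from 290 to 545 at E5.5 in males, with overlap. In females it ran from 680 to 1295 at E9.5 and from 306 to 526 at E5.5, without overlap. These arrays were scanned at different exposures, so the sums here and below are not directly comparable between them. Of 9 probes to miR-143, miR-145, miR-199 and miR-214, known from smooth muscle and mesenchyme, 5 passed as higher in males and 3 in females. The probes dre-miR-143 and hsa-miR-143 met the filter of 3 arrays only through E9.5, with 2 earlier arrays above background each, so nothing is read from that count. The sums of the list ran from 3531 to 8836 at E9.5 and from 1963 to 3544 at E5.5 in males, with overlap. In females they ran from 3225 to 4270 at E9.5 and from 1655 to 3354 at E5.5, also with overlap. In this list dre-miR-214 differed by -0.78 in females and 0.15 in males (limma adjusted p = 0.196 and 0.858). Of 5 probes to miR-202, a gonad microRNA, 4 were above background on at least 1 array and 0 passed in either sex. Of 8 probes to the nervous system microRNAs miR-124 and miR-9, 3 were above on at least 1 array and 0 passed, and of 2 to the endothelial miR-126, 1 was above and 0 passed. The 12 probes to the muscle microRNAs miR-1, miR-133 and miR-206, the 6 to the leukocyte microRNAs miR-142 and miR-223 and the 2 to miR-122 were above background on no array. The part of these cell types in the change of the let-7a-3 tiles was not tested.

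The 5′ tiles of mir-423 went the other way. In females, tile 1-24 stood at 9.52, 10.3, 11.1 and 10.4 at E9.5, against 11.7 on each E5.5 array, without overlap. It fell by 1.37 in females (SE 0.43, limma adjusted p = 0.0498). On 7 of the 18 arrays this tile was the brightest probe normalised, among them all 3 female E5.5 arrays, so its E5.5 level there is again a ceiling. Scaling on the 75th percentile gave a difference of -1.65 (limma adjusted p = 0.0323).

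Tile 6-26 stood at 7.83, 8.72, 9.52 and 8.70 in E9.5 females, against 10.5, 10.1 and 10.0 in E5.5 females, without overlap. It fell by 1.52 in females (SE 0.45, limma adjusted p = 0.0409). Tiles 11-31 and 16-35 differed by -1.27 ± 0.48 and -1.20 ± 0.57 (SE) in females and did not pass (limma adjusted p = 0.100 and 0.184). Tile 11-31 passed in 4 of 27 alternatives, with adjusted p from 0.0262 to 0.278. These were 75th percentile scaling, only the groups compared, the replicate block and the fit without Male E5.5 replicate 2. The calls of tiles 1-24 and 6-26 were not stable. Over the 27 alternatives, tile 1-24 passed in 12, with adjusted p from 0.0147 to 0.164, and tile 6-26 in 14, with adjusted p from 0.013 to 0.164. Both lost their call when any of 9 arrays was left out, which were Male E5.5 replicate 6, each Female E5.5 array, Male E9.5 replicates 1-1 and 3, and Female E9.5 replicates 1-1, 1-2 and 3. Tile 1-24 alone also lost it without the Female E6.5 array. The direction was the same in all 27, of which only the 75th percentile scaling sets no ceiling for tile 1-24.

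In males, the same tiles differed by -0.99 ± 0.43, -0.91 ± 0.45, -1.19 ± 0.48 and -1.11 ± 0.57 (SE) between E9.5 and E5.5, for tiles 1-24, 6-26, 11-31 and 16-35 in that order, and 0 of 4 passed in limma, with adjusted p from 0.158 to 0.294. Single arrays moved these differences. Tile 6-26 ran from -1.41 without Male E5.5 replicate 3 to -0.447 without Male E5.5 replicate 2, and tile 11-31 was at -0.608 without that same array, Male E5.5 replicate 2. Tile 1-24 was at -0.621 without Male E9.5 replicate 1-2. Tile 1-24 stood at 10.4, 9.34, 11.1 and 10.7 in E9.5 males, against 11.7, 10.7 and 11.7 in E5.5 males, with overlap. Within a slide position, tile 1-24 differed by -2.38 in males and by -1.33 and -1.38 in females, and tile 6-26 by -1.26 in males and by -1.33 and -1.63 in females. The male differences and the first female ones rest on 1 array per stage. At each position the E5.5 value of tile 1-24 was the ceiling, 11.7, so its differences reflect the E9.5 arrays alone. The change was not shown to differ between the sexes. The sex difference at E9.5 minus that at E5.5 was 0.38 ± 0.61 for tile 1-24 and 0.61 ± 0.64 for tile 6-26 (SE, limma adjusted p = 0.985 for each). In that test 0 of 24 tiles and 0 of 187 probes (0%) passed, with 2 probes (1.07%) and no tile at an unadjusted p under 0.05. mir-423 tile 1-24 held the ceiling value on every female E5.5 array, and its male E5.5 values were 11.7, 10.7 and 11.7. Its sex difference at E5.5 was thus largely set by the normalisation, so its value cannot show whether the fall differed between the sexes. For let-7a-3 tile 1-29 the same quantity was 0.39 ± 0.45 (SE, limma adjusted p = 0.985). This tile held the ceiling value on every E9.5 array of both sexes, so its sex difference at E9.5 was fixed by the normalisation. The quantity reflects the E5.5 arrays alone and cannot show whether the rise differed between the sexes.

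Tiles that met the filter only through E9.5 are left out here. The other tested tiles of mir-16-1, mir-17, mir-20a and mir-122a-1 did not pass between E9.5 and E5.5. mir-16-1 tile 6-33 came nearest, in females, at 9.80, 8.80, 9.48 and 9.44 at E9.5, against 8.40, 8.68 and 8.46 at E5.5, without overlap (difference 0.87 ± 0.28, SE, limma adjusted p = 0.054). It passed in 9 of 27 alternatives, with adjusted p from 0.017 to 0.264. The mature probe gga-miR-16 rose in females by 0.84 ± 0.24 (SE, limma adjusted p = 0.0388), and differed by 0.22 ± 0.24 in males (limma adjusted p = 0.626). It was above background on only 1 of 3 female E5.5 arrays, so the size of its rise is uncertain. hsa-miR-16 differed by 0.77 ± 0.28 in females and 0.60 ± 0.28 in males (SE, limma adjusted p = 0.0856 and 0.234). mir-16-1 tile 11-36 differed by 0.98 ± 0.42 in males (SE, limma adjusted p = 0.192). At the slide position with male arrays of both stages, 1 of each, it stood at 9.48 at E9.5 and 9.48 at E5.5, a difference of 0. Over 27 alternatives its adjusted p ran from 0.0375 to 0.982, and it passed in 2.

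For mir-16-1 tile 16-43, all 8 E9.5 arrays were above background, against 1 of 3 male and 0 of 3 female arrays at E5.5. Its foreground, at unlike exposures, ran from 153 to 341 units at E5.5 and from 156.5 to 378.5 at E9.5 in males. In females it ran from 148 to 247.75 and from 211.5 to 311.75, so the stages overlapped in both sexes. Without Lambda Spike 8 the tile was above on 17 arrays, and by the mismatch probes' 95th percentile on 15. Whether the count by stage reflects the signal or the threshold was not tested. The tile differed by 0.72 ± 0.31 in females and did not pass (SE, limma adjusted p = 0.134), and in males it differed by 0.34 ± 0.31 (SE, limma adjusted p = 0.536). Tiles 6-31, 11-33 and 16-39 of mir-17 and the 3 tested tiles of mir-20a differed by -0.14 to 0.48 in females. In males they differed by -0.02 to 0.65. The mature probe gga-miR-17-5p differed by 0.15 ± 0.21 in females and -0.02 ± 0.21 in males, dre-miR-17a by 0.57 ± 0.22 and 0.32 ± 0.22, and gga-miR-20a by 0.01 ± 0.40 and 0.10 ± 0.40 (SE), and 0 of these 3 probes passed.

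The steps between neighbouring stages were compared in males, and the 3 male stage comparisons share arrays. From E5.5 to E6.5, 0 of 24 tiles and 0 of 187 probes (0%) passed in limma, with 6 probes (3.21%) at an unadjusted p under 0.05, 3 of them tiles. These were let-7a-3 tiles 6-36 (difference 0.81 ± 0.30) and 1-29 (0.86 ± 0.34) and mir-17 tile 16-39 (0.86 ± 0.39; SE, limma adjusted p = 0.961 for each). That fit had no replicate block, although the male E5.5 and E6.5 arrays share the numbers 2, 3 and 6. Each of the 3 tiles named passed in 0 of 27 alternatives, the replicate block among them. Their lowest adjusted p was 0.222, for let-7a-3 tile 6-36. For the other probes, the count rests on the fit without the block. Between E9.5 and E6.5, 2 of 187 probes (1.07%) and 0 of 24 tiles passed. let-7a-3 tile 1-29 had the lowest p among the tiles, with a difference of 1.04 ± 0.32 (SE, limma adjusted p = 0.116). It passed in 2 of 27 alternatives, when Female E5.5 replicate 3 or 5 was left out (adjusted p = 0.0422 and 0.0378), and its adjusted p over all of them ran from 0.0378 to 0.501.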

How the data were processed

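The deposited scanner files give a median foreground intensity per probe, summarised by the authors over 1 or 2 spots and scanned at 0.5 to 2 s, per the file headers and labels. The headers and labels name no image software. Probes with no included spot were left out. The deposited series table is a linear rescaling of these intensities and served only as an alternative. The 7 arrays of chip 50636 entered no comparison.

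From the 18 arrays, intensities were corrected with normexp (offset 50), put on the log2 scale and quantile-normalised over 731 mature and tiling probes. limma 3.58.1 in R 4.3.3 fitted 6 group means, and 8 contrasts were tested. The fit was tested on simulated arrays with independent normal values. These held no brightness ceiling, shared replicate numbers or slide positions, so that test does not bear on results that depend on them. The members, the marker lists and the rules below were chosen with earlier results of these data known. Tiles above background on at least 3 arrays, tiles that passed, and the 6 lowest p-values per contrast could be named, with the mature probes of the same microRNA.

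Replicate numbers were checked by correlating deviations from group means. Same-numbered male and female E9.5 arrays correlated at 0.23 to 0.48 over 4 pairs, and male E5.5 and E6.5 arrays at 0.31 to 0.75 over 3 pairs. Male E5.5 and E9.5 arrays correlated at 0.56 for number 2 and at -0.10 for number 3. No correlation was computed between differently numbered arrays, so whether the numbers pair the arrays was not tested. The other comparisons share fewer than 3 numbers. Alternatives changed scaling, background correction, the filter, the arrays fitted, blocks and covariates, and left out each array in turn.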

Additional observations from a re-analysis of the deposited data

Results flagged for a closer look

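In groups of 4 arrays, a tested tile stood out when one array's gap to the nearest other was more than Dixon's 95% critical share of the group's range. Of 48 such groups, 6 had an array of this kind, and chance gives about 1 in 20. All values are normalised log2. In E9.5 males, replicate 3 was high for let-7a-3 tile 16-42, at 7.22 against 6.58 to 6.66 in the others, and replicate 2 was low for let-7a-3 tile 26-47, at 8.21 against 8.85 to 8.92. Replicate 2 of the E9.5 males was also high for hsa-mir-423 tile 16-35, at 8.46 against 7.61 to 7.72. In E9.5 females, replicate 1-2 was low for mir-17 tile 16-39, at 8.69 against 10.0 to 10.1, and high for mir-20a tile 11-37, at 9.10 against 8.59 to 8.66. Replicate 3 of the E9.5 females was high for mir-122a-1 tile 11-35, at 7.45 against 6.58 to 6.62.

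The 7 arrays of the other chip, 50636, were not used in the comparisons. There, 21 tiles were above their own array's negative controls on at least 4 of 7 arrays, and 13 of these are among the 18 tiles above on at least 9 of the 18 arrays of chip 4011845. The mir-122a-1 tiles 6-29, 11-35 and 16-40 were above on all 7 arrays of that chip. On chip 4011845 they were above on 6, 7 and 0 of 18 arrays. hsa-mir-423 tiles 16-35 and 21-42 were above on 1 and 4 of the 7 arrays of chip 50636, against 18 and 0 of 18 on chip 4011845.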

How the results depend on the processing

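Between the sexes, 0 tiles passed under all alternatives at E5.5 and E9.5. Without the filter on dim probes, 15 probes and 3 tiles passed at E6.5. At E9.5, 3 probes passed when only the groups compared were fitted and 1 with the replicate block. Between E9.5 and E6.5 in males, 0 probes passed with 75th percentile scaling, with the authors' series values and with only the groups compared, 1 with the replicate block and 6 with slide position as a block. Between E9.5 and E5.5 in males, the authors' series values gave 9 probes and 1 tile, the groups alone 5 and 1, and the replicate block 4 tiles. In females, the series values gave 2 probes and 0 tiles, no filter gave 2 tiles, the groups alone 44 and 8, merging arrays 1-1 and 1-2 gave 9 and 1, and exposure as a covariate 36 probes. Fewer than 3 replicate numbers are shared between E9.5 and E5.5 in either sex, so whether they pair these arrays was not tested. Without Lambda Spike 8, an alternative chosen after seeing the data, 34 tiles were above background on at least 9 arrays, against 27 by the mismatch probes' 95th percentile and 18 by the highest control. The cause of these changes was not tested.

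With single arrays left out, the probes that passed numbered 0 to 4 between E9.5 and E6.5 in males (tiles 0 to 1), 7 to 18 between E9.5 and E5.5 in males (tiles 1 to 3) and 8 to 32 in females (tiles 1 to 6). The count was lowest in males without Male E5.5 replicate 2 (7), Male E9.5 replicate 1-1 (8) or 1-2 (9). In females it was 8 to 13 without any Female E5.5 array, without Male E9.5 replicate 1-1, or when replicate 1-1, 1-2 or 3 of the Female E9.5 arrays was dropped, and 32 without Male E5.5 replicate 2. Tiles above background stayed at 18, a count that leaving out 1 array could not change. The cut stayed at 9 arrays, the weakest of the 18 tiles was above on 10, and the best of the others on 7.

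Some differences that did not pass changed sign. With slide position as a block these were, for male minus female at E5.5, let-7a-3 tiles 11-39 (0.0163) and 46-76 (0.0520), mir-16-1 tile 11-36 (0.51) and mir-17 tiles 11-33 (0.85) and 16-39 (0.44), and, at E9.5, let-7a-3 tile 11-39 (-0.0731). For E6.5 minus E5.5 in males they were let-7a-3 tile 11-39 (-0.00716), mir-16-1 tile 11-36 (-0.0870) and mir-17 tile 16-39 (-0.0963). For the change of the sex difference they were let-7a-3 tiles 11-39 (-0.0893) and 46-76 (-0.16) and mir-17 tiles 16-39 (-0.53) and 21-50 (-0.18). With the series values, let-7a-3 tile 11-39 at E9.5 (-0.29) and the change of the sex difference of mir-17 tile 21-50 (-0.54) turned, and with the replicate block let-7a-3 tile 1-29 at E5.5 (0.47). Leaving out single arrays, let-7a-3 tile 1-29 ran from -0.86 to 0.0716 at E5.5 and tile 11-39 from -0.0398 to 0.55 at E9.5. Keeping excluded spots was not run, since those probes hold no value. Brightness over background limits the other tiles, since 50 of 74 could not be tested.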
